A study of Mus musculus with 3 samples.

Results

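The semaphorins, ephrins and netrins were cloned as cues that steer growing axons, and the same proteins act between the cells of epithelia, stroma and vessels. Class 3 semaphorins are secreted and bind neuropilins, which signal through A plexins, whereas the membrane-bound semaphorins of classes 4 to 7 bind plexins directly. Ephrins are held in the membrane of one cell and are read by Eph receptor tyrosine kinases on its neighbour, with type A ephrins anchored by a lipid and type B ephrins crossing the membrane. Netrins are secreted, laminin-related proteins that are read by Dcc, neogenin and the Unc5 receptors. In the kidney, members of these families are known to act on ureteric branching, on the endothelium and on podocytes.

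The genes described here are the semaphorins of classes 3 to 7 with their plexins and neuropilins, the Eph receptors with the ephrins, and the netrins with the Unc5 receptors. Members were taken by gene name from the array design, which gave 101 probes for 59 genes out of 41174 probes and 19754 named genes. The study set Fgfrl1-/- mice (C57BL/6) against wildtype littermates (C57BL/6 wt) and asked which transcripts depend on Fgfrl1, an FGF receptor-like protein without a kinase domain. Kidney rudiments were dissected at E12.5, when the first nephrogenic structures form, and each of 3 Fgfrl1-/- and 3 wildtype RNA preparations came from 6 to 9 pooled rudiments. Each array carried 1 Fgfrl1-/- pool labelled with Cy3 and 1 wildtype pool labelled with Cy5. No dyes were swapped, so that a dye effect and a genotype effect cannot be told apart. The kidney rudiment is a mixture, and in such bulk RNA fewer cells of a type and less RNA per cell cannot be told apart.

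Throughout, the log2 ratio is that of Fgfrl1-/- over wildtype after normalization within each array, and a gene with several probes is represented by its brightest one. Adjusted p-values are from limma with Benjamini-Hochberg adjustment over all 19754 genes, and a gene was called at an adjusted p below 0.05. The probe for Fgfrl1 itself gave log2 ratios of -1.21, -1.51 and -1.83 (adjusted p = 0.0108). Whether that probe lies inside the deleted part of the gene is not given in the sources used here. Array 1 was run on another slide, with another version of the scanner software, than arrays 2 and 3, and its log2 ratios over all genes correlated with theirs at 0.28 and 0.32, against 0.77 between arrays 2 and 3. Over the 59 guidance genes the same correlations were 0.30, 0.29 and 0.80, given as a description across genes that are not independent. The guidance probes were well above background on most arrays, with between 77.2% and 88.1% of the 101 probes in the Fgfrl1-/- channel and between 81.2% and 82.2% in the wildtype channel.

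The tissue showed its defining markers. All 7 cap mesenchyme genes, among them Six2, Cited1 and Eya1, were above background in every pool, as were all 8 renal vesicle, 7 stroma and 8 endothelial markers, whereas the Ret probe of the ureteric epithelium was above background in 1 Fgfrl1-/- pool and in no wildtype pool. Some of these lists moved with genotype. Over all genes, limma called 1.7% lower and 1.96% higher. At an unadjusted p below 0.05, 9.74% were lower and 11.3% higher. Of the renal vesicle markers, which label the first epithelial nephron precursors, 7 of 8 fell (median log2 ratio -1.18), and their summed signal was 5370 to 7116 in the Fgfrl1-/- pools against 10766 to 12970 in the wildtype pools. Those 7 are also in the paper's list of genes lowered on these same arrays. Their fall is therefore not an independent result. Of the stromal markers 3 of 7 rose (Pdgfra 1.02, Foxd1 0.90, Col1a1 0.84), and their summed signal was 95347 to 114471 against 64657 to 73518. The paper's qPCR at E12.5 found no change of Col1a1 and reproduced none of the higher array genes it covered. The stromal list did not move as 1 group, since Tcf21 was at -0.48 (lower on all 3 arrays, unadjusted p = 0.00526, adjusted p = 0.0758), Pdgfrb at -0.25 and Acta2 at -0.16. Meis1 was at 0.37 (higher on all 3 arrays, limma, unadjusted p = 0.0046, adjusted p = 0.0722). The stromal median was 0.37, with 4 genes higher and 1 lower at an unadjusted p below 0.05. The endothelial list had 0 of 8 genes called by limma, 0 at an unadjusted p below 0.05, a median of -0.03 and overlapping summed signals of 12056 to 16309 and 13137 to 15960. Of the neuronal markers 1 of 8 fell (Elavl4 -0.71), while Nefl was at 0.34 (limma, unadjusted p = 0.0113, adjusted p = 0.111). The neuronal list had a median of -0.03 and overlapping summed signals of 2617 to 3654 and 3148 to 3519. Of the glial and neural crest markers 0 of 5 were called, 1 of them with an unadjusted p below 0.05. Among the cap mesenchyme markers 1 of 7 fell (Cited1 -0.78) and 3 were lower at an unadjusted p below 0.05, with a list median of -0.11 and summed signals of 16226 to 17533 against 20607 to 21315, without overlap. Of the ureteric epithelium markers 1 of 8 fell (Wnt11 -0.76), 1 rose (Wnt9b 0.73) and 5 were higher at an unadjusted p below 0.05, with a list median of 0.35 and summed signals of 28467 to 35957 against 25955 to 27601, also without overlap. The part of these shifts in the results below was not tested.

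Of the 59 guidance genes, 4 changed in the Fgfrl1-/- rudiments, at fold changes between 1.34 and 1.64. Epha2, a receptor for type A ephrins that is found in many epithelia, and Sema3a, a secreted repellent that binds Nrp1, fell. Efna5, a lipid-anchored ligand of EphA receptors, and Ntn1, the founding vertebrate netrin, rose. Neither Efna5 nor Ntn1 was checked by qPCR in the paper, which at E12.5 reproduced none of the higher array genes it covered. Over all genes 3.66% were called, 1.7% lower and 1.96% higher, so that the 2 lower and 2 higher guidance genes lie near the background. With median centring in place of loess the calls over all genes were 305 lower and 17 higher, against 336 lower and 387 higher as reported, and no guidance gene was called (6 had an unadjusted p below 0.05).

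The promoters of Efna5, Epha2 and Sema3a are shown because these guidance genes were called. For Ntn1, which had the largest change, none is printed here. Each is the 250 bases before the start of the gene in RefSeq (GRCm38.p6), written 5′ to 3′ on the strand of the gene, with each GC box (GGGCGG, or CCGCCC on the other strand) in capitals. The windows of Efna5 (chr17:62881318-62881567, minus strand), Epha2 (chr4:141300971-141301220, plus strand) and Sema3a (chr5:13396534-13396783, plus strand) follow.
Efna5: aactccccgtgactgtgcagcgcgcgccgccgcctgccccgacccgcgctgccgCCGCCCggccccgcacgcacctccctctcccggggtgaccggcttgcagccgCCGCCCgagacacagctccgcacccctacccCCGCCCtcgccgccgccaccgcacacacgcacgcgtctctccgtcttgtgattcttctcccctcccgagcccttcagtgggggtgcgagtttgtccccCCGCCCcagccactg
Epha2: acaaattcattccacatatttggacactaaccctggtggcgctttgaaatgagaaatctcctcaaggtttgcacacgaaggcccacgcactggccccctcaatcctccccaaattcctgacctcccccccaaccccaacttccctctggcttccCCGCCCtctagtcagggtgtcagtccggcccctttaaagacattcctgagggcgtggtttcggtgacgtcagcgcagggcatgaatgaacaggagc
Sema3a: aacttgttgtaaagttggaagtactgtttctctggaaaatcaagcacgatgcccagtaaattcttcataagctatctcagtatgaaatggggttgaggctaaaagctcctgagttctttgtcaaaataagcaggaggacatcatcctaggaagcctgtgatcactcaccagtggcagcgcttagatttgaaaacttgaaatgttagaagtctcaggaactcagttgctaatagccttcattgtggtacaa
The Efna5 window held 4 GC boxes and was 74.8% G and C, the Epha2 window held 1 and was 55.6%, and the Sema3a window held none and was 40.8%, against a median of 55.6% over all such windows of protein-coding genes. A GC box was found in 42.6% of these 21263 windows, and in 75.4% of the 65 windows that belong to 51 of the guidance genes, some of which have several starts. The Ets motif CCGGAAG (searched on both strands) was in 8.98% of all windows and in 2 guidance windows, and the TCF/LEF motif CTTTGAT was in 2.82% and in 1. Neither of them was in the sequences printed here. These matches describe letters and not binding sites.

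**Figure D1:**
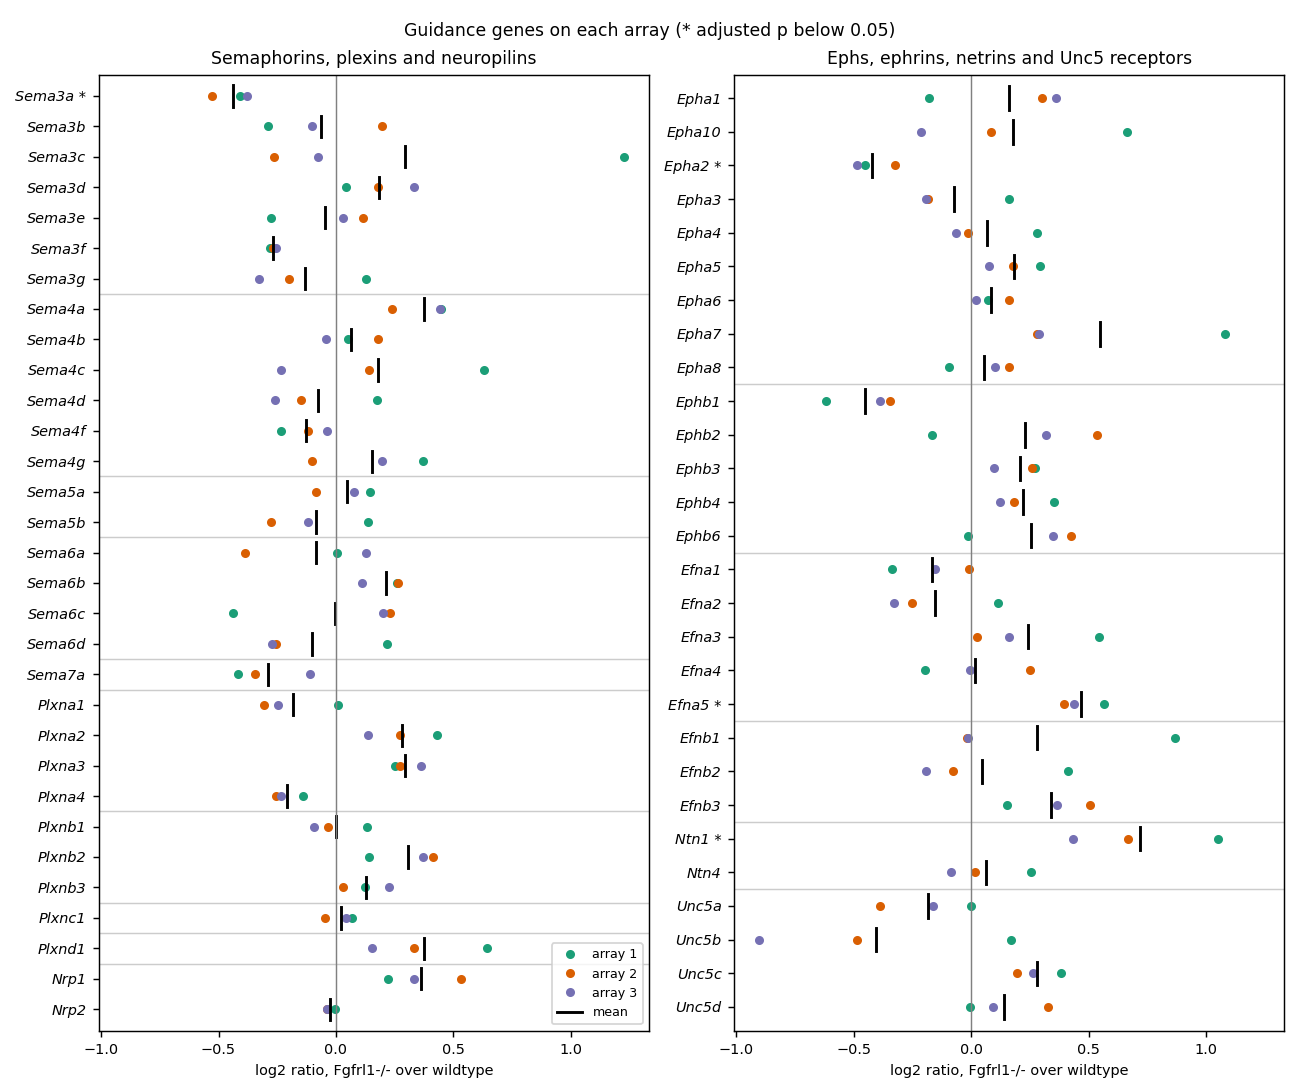
The log2 ratio of Fgfrl1-/- over wildtype (x axis) is plotted for each of the 59 guidance genes (rows, grouped by family with grey lines between families), with 1 coloured dot per array, a black bar for the mean of 3 arrays and an asterisk for an adjusted p below 0.05. Means ran from -0.45 (Ephb1) to 0.72 (Ntn1), most lay close to 0, and array 1 lay far from the other 2 for Sema3c, Efnb1 and Epha7.

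Over the whole set 37 genes had a positive and 22 a negative mean, with a median of 0.06 against 0.01 for all genes, and median centring turned this to 26 positive, 33 negative and a median of -0.03. The 3 arrays had the same sign for 29 of 59 guidance genes, and for 43.2% of all genes. At an unadjusted p below 0.05 there were 6 lower and 14 higher guidance genes, beside 9.74% and 11.3% of all genes. The largest means were small. A mean log2 ratio of at least 0.5 in size was reached by 2 of the 59, Ntn1 and Epha7, beside 3.31% of all genes, and none reached 1. The normalized signals of the 3 Fgfrl1-/- pools and the 3 wildtype pools did not overlap for 16 of 59 genes, 6 lower and 10 higher, beside 16.7% of all genes.

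Among the secreted class 3 semaphorins, 1 of 7 fell. Sema3a was represented by a probe at chr5:13605984-13606043 (mm8, the build of the array design, for which no gene annotation was used). Its log2 normalized signal was 7.03, 7.48 and 7.50 in the Fgfrl1-/- pools and 7.44, 8.01 and 7.88 in the wildtype pools. The signals of the groups overlapped, since array 1 was dimmer in both channels, but on each array the Fgfrl1-/- pool was the lower one. The log2 ratios of -0.41, -0.53 and -0.38 gave a mean of -0.44 ± 0.080 (SD, n = 3, adjusted p = 0.0422), or 1.36-fold. The other 2 probes of Sema3a showed less. One of them, above background in every pool, gave -0.31, -0.01 and -0.18, and the other was not well above background in any pool. The mean of all Sema3a probes was -0.22 (adjusted p = 0.136).

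The remaining class 3 genes were not called. Sema3f, a ligand of Nrp2 named here after its values were seen, had the tightest values of the family, with -0.28, -0.27 and -0.26 on the 3 arrays (adjusted p = 0.0957). Its signals did not overlap between the groups, at 8.97 to 9.10 against 9.25 to 9.37, and its second probe had a mean of -0.35. Sema3c, which is expressed in branching organs and in the outflow tract of the heart, stood at 1.23 on array 1 and at -0.26 and -0.08 on arrays 2 and 3. That value rested on 1 Fgfrl1-/- pool, whose signal was 9.15 beside 7.76 and 7.71 in the others, and the mean without array 1 was -0.17. The second Sema3c probe gave 0.09 on array 1 and -0.42 and -0.29 on the others. Sema3b, Sema3d, Sema3e and Sema3g had means between -0.13 and 0.18.

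None of the 13 membrane-bound semaphorins was called by limma. An unadjusted p below 0.05 was found for 3 of them (Sema4a, Sema6b and Sema7a), beside 21.1% of all genes. In class 4, Sema4a, which is known from immune cells and the retina, came closest with log2 ratios of 0.45, 0.24 and 0.44 (mean 0.38 ± 0.12, adjusted p = 0.0628), and the other class 4 genes lay between -0.13 and 0.18. In class 5, whose members carry thrombospondin repeats, the representing probe of Sema5b had a mean of -0.09, but 1 of its other probes gave -0.06, -0.57 and -0.51. In class 6, Sema6b had the largest mean (0.26, 0.26 and 0.11 on the arrays, adjusted p = 0.181). For Sema6c and Sema6d the probes disagreed in sign: the second Sema6d probe stood at 1.20 on array 1 and at -0.19 and -0.23 on the others, against 0.22, -0.26 and -0.27 for the representing probe. Sema7a, the lipid-anchored semaphorin, had log2 ratios of -0.42, -0.34 and -0.11 (adjusted p = 0.132).

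The semaphorin receptors held no called gene under limma. At an unadjusted p below 0.05 were 5 of 9 plexins and 1 of 2 neuropilins, beside 21.1% of all genes. Of these receptors only Plxna4 was lower, at -0.14, -0.25 and -0.23 (adjusted p = 0.171), and the others were higher. Nrp1, which binds Sema3a and is also a co-receptor of Vegfa, was higher in the Fgfrl1-/- pool of every array on all 3 of its probes. The representing probe gave 0.22, 0.53 and 0.33 (mean 0.36 ± 0.16, adjusted p = 0.081), and the others had means of 0.23 and 0.47. The mean of the 3 probes passed the test at 0.35 (adjusted p = 0.0489). Of 15 alternatives in processing or arrays, Nrp1 passed in 2, this one and the fit without array 1. Its log2 ratio ran from 0.15 to 0.43 over them, with limma adjusted p-values up to 0.941. Nrp2, the partner of Sema3f, was level at -0.01, -0.04 and -0.04. Endothelial cells, in which Nrp1 is abundant, had 0 of 8 markers called, and stroma had 3 of 7 called higher, as given above. The part of the cell mixture in the Nrp1 values was not tested.

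Among the A plexins, which pair with neuropilins, Plxna3 had the largest mean (0.25, 0.27 and 0.36, adjusted p = 0.0824) and its second probe a mean of 0.18. The 3 probes of Plxna2 had means of 0.23, 0.28 and 0.37, while the probes of Plxna1 differed in sign (-0.18 and 0.08). Plxnb2, a receptor for class 4 semaphorins, was at 0.14, 0.41 and 0.37 on its representing probe (adjusted p = 0.109) and at -0.44, -0.11 and -0.16 on the other, so that no direction can be given for the gene. Plxnb3 was above background in 1 Fgfrl1-/- pool and in no wildtype pool, and no fold is given for it. Plxnd1, the receptor that reads Sema3e on vessels, was at 0.64, 0.33 and 0.16 (adjusted p = 0.119), and its signals did not overlap between the groups. Plxnc1, the receptor of Sema7a, was at 0.07, -0.05 and 0.04.

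**Figure D2:**
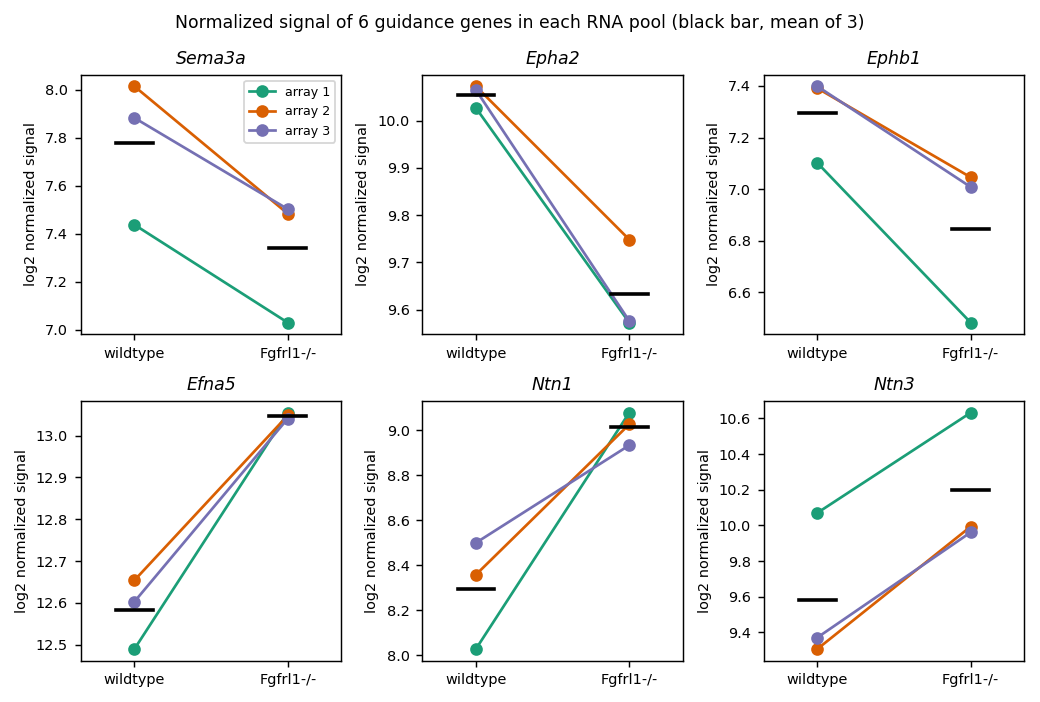
Log2 normalized signal (y axis, own scale in each panel) of 6 guidance genes in the wildtype and Fgfrl1-/- pools, with the 2 pools of an array joined by a line and a black bar for the mean of 3 pools. Every line falls for Sema3a, Epha2 and Ephb1 and rises for Efna5, Ntn1 and Ntn3, and the pools of array 1 are set apart for Sema3a, Ephb1 and Ntn3.

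In the Eph receptors 1 of 14 genes fell and none rose, beside 1.7% and 1.96% of all genes. The mean was positive for 7 of 9 EphA and 4 of 5 EphB receptors. At an unadjusted p below 0.05, 1 EphA receptor was lower and 1 higher, and 1 EphB receptor was lower and 2 higher. Over all genes 9.74% were lower and 11.3% higher at that threshold. Epha2 has a single probe, at chr4:140601300-140601359 (mm8), and its log2 normalized signal was 9.57, 9.75 and 9.58 in the Fgfrl1-/- pools against 10.03, 10.07 and 10.06 in the wildtype pools. The groups did not overlap, and the wildtype pools lay close to one another. The log2 ratios of -0.45, -0.32 and -0.49 had a mean of -0.42 ± 0.087 (adjusted p = 0.0462), or 1.34-fold. Median centring gave -0.65 for this gene (adjusted p = 0.116).

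Epha7, a receptor of ephrin-A ligands known from the brain, had the largest mean of the receptors and was not called. Array 1 alone carried most of it, with 1.08 beside 0.28 and 0.29 (mean 0.55 ± 0.46, adjusted p = 0.138), and its second probe gave 0.42, 0.19 and 0.17. The probes of Epha3 differed in sign (means of -0.07 and 0.11). Epha8 was not well above background in any pool on its probe. The representing probe of Epha6 was not well above background in any pool either, and that of Epha10 was above background in 1 Fgfrl1-/- pool and in no wildtype pool, so that no fold is given for them. The other EphA receptors, Epha1, Epha4 and Epha5, had means between 0.07 and 0.18.

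Of the EphB receptors, which read ephrin-B ligands, Ephb1 was the lowest. Its signal was 6.48, 7.05 and 7.01 in the Fgfrl1-/- pools and 7.10, 7.39 and 7.40 in the wildtype pools, without overlap, and its log2 ratios of -0.62, -0.35 and -0.39 (mean -0.45 ± 0.15) just missed the threshold (adjusted p = 0.0503). The other 4 EphB receptors had positive means between 0.21 and 0.25 and none was called. Among them Ephb4, the venous receptor of ephrin-B2, was at 0.35, 0.18 and 0.12, and its second probe had a mean of 0.19. Ephb2 and Ephb3 turned negative with median centring.

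Among the ephrin-A ligands 1 of 5 rose. Efna5 was represented by a probe at chr17:62290290-62290349 (mm8), with a log2 normalized signal of 13.06, 13.05 and 13.04 in the Fgfrl1-/- pools and of 12.49, 12.65 and 12.60 in the wildtype pools. The groups did not overlap, and the Fgfrl1-/- pools spread over less than the wildtype pools. The log2 ratios of 0.56, 0.39 and 0.44 gave a mean of 0.47 ± 0.089 (adjusted p = 0.0386), or 1.38-fold. The second Efna5 probe, above background in 2 Fgfrl1-/- and 3 wildtype pools, gave -0.17, -0.09 and 0.02. The rise of Efna5 depended on the normalization. Median centring gave 0.06 (adjusted p = 0.961), and the mean of both probes was 0.19 (adjusted p = 0.152). Efna1 to Efna4 had means between -0.17 and 0.24.

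The ephrin-B ligands, which signal back into the cells that carry them, held no called gene under limma. Efnb3 alone had an unadjusted p below 0.05, beside 21.1% of all genes. Efnb3 was at 0.15, 0.51 and 0.37 (adjusted p = 0.105). Efnb1, named after its values were seen, stood at 0.87 on array 1 and at -0.02 and -0.02 on the others. Efnb2, the arterial ligand of Ephb4, was at 0.41, -0.08 and -0.19, its second probe had a mean of -0.10, and its own mean of 0.05 turned to -0.23 with median centring and to -0.14 without array 1.

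Of the 2 netrins in the set, Ntn1 rose and had the largest mean of all 59 genes. Its probe lies at chr11:68026504-68026563 (mm8), and the log2 normalized signal was 9.08, 9.03 and 8.93 in the Fgfrl1-/- pools against 8.03, 8.36 and 8.50 in the wildtype pools. The groups did not overlap, but the size of the rise differed between arrays. The log2 ratios were 1.05, 0.67 and 0.43 (mean 0.72 ± 0.31, adjusted p = 0.0444), or 1.64-fold. The second Ntn1 probe, above background in 3 Fgfrl1-/- and 2 wildtype pools, gave -0.05, 0.23 and 0.24, and the mean of both probes passed the test at 0.43 (adjusted p = 0.0364). Ntn4, a netrin of basement membranes, was above background in 1 Fgfrl1-/- pool and in no wildtype pool, and no fold is given for it.

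A netrin outside the name rule moved the same way. Ntn3, another ligand of Dcc and the Unc5 receptors, is listed on the array under the older name Ntn2l, and it is named here after its values were seen. Its signal was 10.63, 9.99 and 9.96 in the Fgfrl1-/- pools and 10.07, 9.31 and 9.37 in the wildtype pools, and its log2 ratios of 0.56, 0.69 and 0.59 had a mean of 0.61 ± 0.065 (adjusted p = 0.0198). Its groups overlapped only through array 1, which was brighter in both channels. Ntn5, listed as Gm484, was above background in 1 pool of each genotype and had a mean of -0.04.

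None of the 4 Unc5 receptors was called by limma. Unc5c alone had an unadjusted p below 0.05, beside 21.1% of all genes. Unc5b, the netrin receptor of endothelial tip cells, had the largest mean and the widest spread, with 0.17, -0.49 and -0.90 on the 3 arrays (mean -0.41 ± 0.54, adjusted p = 0.308). Unc5c was at 0.38, 0.20 and 0.27 (adjusted p = 0.105) and turned to -0.01 with median centring. The other netrin receptors, Dcc and Neo1, belong to the wider pathway list and were at -0.23 (adjusted p = 0.25) and 0.01 (adjusted p = 0.952).

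**Figure D3:**
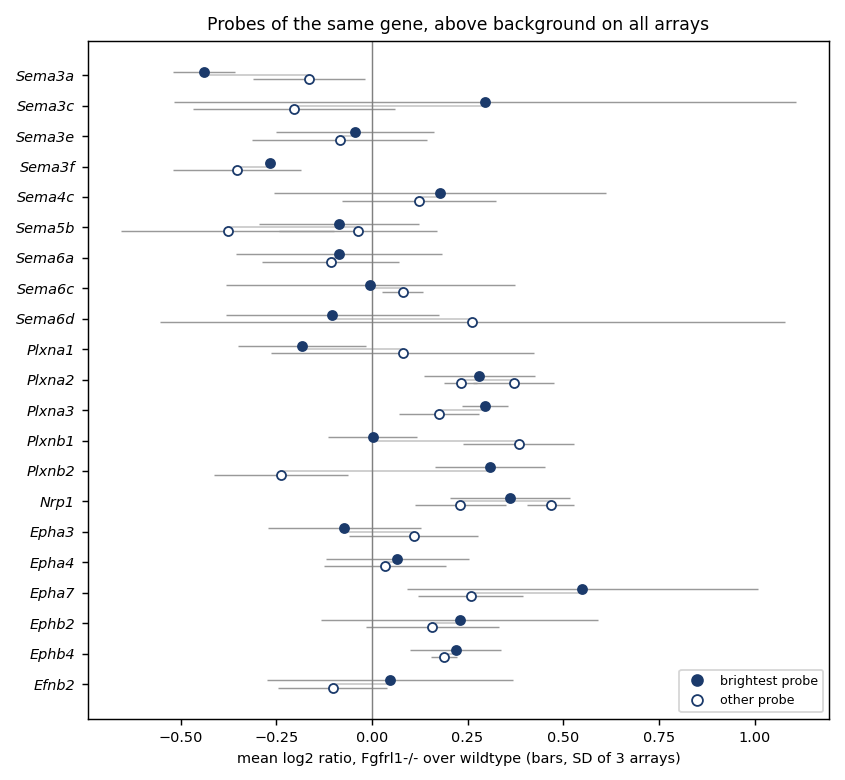
Mean log2 ratio of Fgfrl1-/- over wildtype (x axis, bars for the SD of 3 arrays) of each probe, for the 21 guidance genes with 2 or more probes above background in every pool. Filled dots are the brightest probe, which represents the gene, and open dots are the other probes. Nrp1, Plxna2 and Sema3f have all probes on one side of 0, while Plxnb2 has 1 probe on each side.

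Probes of the same gene often disagreed. There were 31 guidance genes with 2 or more probes, and for 21 of them at least 2 probes were above background in every pool. The probes had the same sign for 14 of these 21 genes and both signs for 7, namely Sema3c, Sema6c, Sema6d, Plxna1, Plxnb2, Epha3 and Efnb2. For Plxnb1 the representing probe was level (0.00) while the other was at 0.34, 0.54 and 0.26. When all 41174 probes were tested one by one, 0 of the 101 guidance probes passed under limma, 30 had an unadjusted p below 0.05, and the lowest adjusted p was 0.0661, for a probe of Nrp1. Over all probes 0.687% passed and 15.9% had an unadjusted p below 0.05.

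The calls changed when an array was left out, while the sizes of the 4 called changes moved less. Without array 2 or without array 3 no guidance gene was called (11 had an unadjusted p below 0.05 each time), and the share of all genes called fell to 0.248% and 0.0405%. The means of the 4 genes were then 0.74 and 0.86 for Ntn1, 0.50 and 0.48 for Efna5, -0.47 and -0.39 for Epha2 and -0.39 and -0.47 for Sema3a. Without array 1, which leaves the 2 arrays of one slide, 26 guidance genes and 23.8% of all genes were called, among them all 4 of those called with every array. The direction of the 4 was the same on both slides. They were called on all 3 arrays together, which favours such genes, so this is not independent support. Within the slide of arrays 2 and 3 the means were 0.55 for Ntn1, 0.42 for Efna5, -0.41 for Epha2 and -0.45 for Sema3a, and array 1 on its own gave 1.05, 0.56, -0.45 and -0.41.

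**Figure D4:**
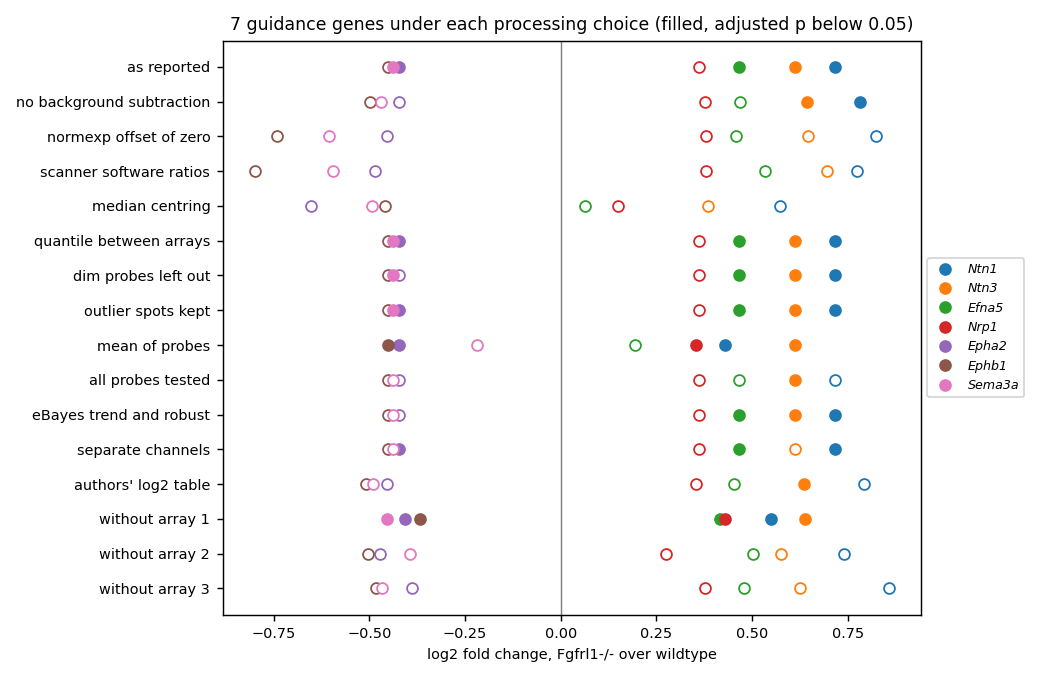
Log2 fold change of Fgfrl1-/- over wildtype (x axis) of 7 guidance genes (colours) under the reported processing and each alternative (rows), with filled dots for an adjusted p below 0.05 and open dots otherwise. Each gene keeps to one side of 0 in every row, Efna5 comes close to 0 (0.06) with median centring, and all 7 dots are filled without array 1.

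The wider guidance pathway was read from a list of 40 genes for other ligands, receptors and cytoplasmic partners, of which 39 were tested. Of these, 11 were higher and 3 lower at an unadjusted p below 0.05, beside 11.3% and 9.74% of all genes. At an adjusted p below 0.05, beside 1.7% lower and 1.96% higher of all genes, 0 fell and 4 rose. They were Slit3, a secreted ligand of Robo receptors (0.57 ± 0.073, adjusted p = 0.0228), Ntng1, a membrane-anchored netrin relative (0.93 ± 0.45, adjusted p = 0.047), Dpysl3, a collapsin response mediator in the cytoplasm (0.51 ± 0.15, adjusted p = 0.0422), and Vav3, a cytoplasmic protein that acts below Eph receptors (0.52 ± 0.20, adjusted p = 0.0499). The median of the list was 0.05, and with median centring none of its genes was called, with 2 lower and 1 higher at an unadjusted p below 0.05. Slit2 and Robo2, which restrict the site of ureteric budding, were at -0.37 (adjusted p = 0.225) and -0.24 (adjusted p = 0.307).

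A second list held 10 genes of ureteric branching and of vessels that share co-receptors or modulators with the guidance genes. In it 3 fell and 0 rose, beside 1.7% and 1.96% of all genes (1 higher at an unadjusted p below 0.05, Pgf at 0.57). Those that fell were Spry1, a feedback inhibitor of receptor tyrosine kinases (-0.94 ± 0.15, adjusted p = 0.0134), Gdnf, the ligand that draws the ureteric bud (-0.83 ± 0.18, adjusted p = 0.0175), and Wnt11, a target of Gdnf at the bud tips (-0.76 ± 0.13, adjusted p = 0.0172). The paper had already listed Spry1 and Gdnf as lowered on these same arrays, so the count is not an independent result. Vegfa, the ligand for which Nrp1 is a co-receptor, was at 0.67, -0.18 and 0.02 (adjusted p = 0.63), and its receptor Kdr at 0.27, -0.07 and -0.06 (adjusted p = 0.858).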

How the data were processed

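Total RNA from pooled rudiments (6 to 9 per preparation, 600 ng labelled) was hybridized in pairs to 3 whole mouse genome arrays. The authors scanned the slides and extracted signals with Agilent Feature Extraction (version 10 per the labels; the file headers give 9.5.3.1 on array 1 and 10.5.1.1 on the others). Used here were the deposited spot intensities, the log10 ratios of the scanner software that the authors deposited with them, and the authors' table of log2 ratios. The authors' table has an unstated centring and normalization. Correlation with the scanner ratios showed that it runs as Fgfrl1-/- over wildtype, and the medians of its arrays were -0.02, 0.00 and 0.00.

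With limma 3.58.1 in R 4.3.3, median spot intensities were background corrected (normexp, offset 50) and normalized by loess within arrays, with control spots at weight 0. Outlier spots were dropped and spots of a probe were averaged. The brightest probe represented each gene, and the 3 log2 ratios were fitted (lmFit, eBayes, 2-sided, Benjamini-Hochberg over 19754 genes). Signals per pool are the same values after scaling between arrays (Aquantile). Gene names were in the file of array 1 and were joined to the others by probe, and accessions and older symbols were matched to RefSeq GRCm38.p6. Of 41174 probes 8058 had no gene name. The steps were run on simulated data with equal noise on all 3 arrays. Those data held no slide effect and no dye effect of single genes, so neither was tested. Genes were called at an adjusted p below 0.05.

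Named are called genes, the member with the largest absolute change in each family, members at 0.5 or more, members whose probes differ in call or sign, called genes of the pathway lists and Fgfrl1; any other name was chosen after its values were seen. The members, lists and tests were chosen with earlier results of these data known. Each RNA preparation was a separate pool. The number of arrays limits the precision.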

Additional observations from a re-analysis of the deposited data

How the results depend on the processing

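Of the 336 lower and 387 higher genes in all, a normexp offset of 0 and the ratios of the scanner software each left 0 and 0 (1565 and 1872 lower genes at an unadjusted p below 0.05), testing all probes left 122 and 92, 157 and 113 remained in the authors' log2 values, and median centring 305 and 17. The count of guidance genes moved from 2 lower and 2 higher to 0 and 1 without background subtraction (Ntn1), to 0 and 0 with an offset of 0, scanner ratios, median centring, all probes tested or the authors' table (6 to 20 guidance genes at an unadjusted p below 0.05), to 1 and 2 when dim probes were left out (Epha2 not called), and to 0 and 2 with a trended, robust variance. Averaging the probes of a gene left 2 and 2, with Epha2 and Ntn1 shared and Ephb1 and Nrp1 in place of Sema3a and Efna5. Quantile scaling between arrays and keeping outlier spots called the same 4 guidance genes. The wider pathway list went from 4 higher to 2 without background subtraction or with the mean of probes, to 1 with all probes tested, and to 0 with an offset of 0, scanner ratios, median centring or the authors' table, and the branching list from 3 lower to 0 with an offset of 0 or scanner ratios. Leaving out 1 array gave 8 to 2257 lower and 0 to 2438 higher genes among all tested, 0 to 11 lower and 0 to 15 higher guidance genes, 0 to 5 lower and 0 to 11 higher genes of the wider pathway, and 0 to 3 lower and 0 to 1 higher of the branching list, each time highest without array 1. The median over the guidance genes was 0.17 with an offset of 0, -0.028 with median centring, 0.14 on array 1 alone and 0.05 to 0.11 without 1 array. The cause of these shifts was not tested.

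The 4 called guidance genes kept their direction under these alternatives. Of the 59 guidance genes the sign turned for 15 with median centring (13 to negative), 5 with the mean of probes, 6 in the scanner ratios, 2 each without background subtraction, with an offset of 0 and in the authors' table, and 13, 3 and 1 without arrays 1, 2 and 3. The genes chosen by the naming rule or at an unadjusted p below 0.05 were among them as follows. With median centring they were Efnb2 (-0.23), Epha3 (0.020), Ephb3 (-0.036), Plxnb2 (-0.028), Plxnc1 (-0.091), Sema6c (0.0040) and Unc5c (-0.014). With the mean of probes they were Efnb2 (-0.028), Sema6c (0.038) and Sema6d (0.040). Sema6c, whose mean was 0.00, was also at 0.012 without background subtraction, 0.023 with an offset of 0 and 0.080 in the scanner ratios. In these genes, over the fits without 1 array, Efnb2 ran from -0.14 to 0.17, Plxnc1 from -0.0037 to 0.056, Sema3c from -0.17 to 0.58, Sema5b from -0.20 to 0.0097 and Sema6c from -0.12 to 0.21.

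The 2 pools of an array were paired by the array itself. With the channels fitted separately, without pairing as a replicate block, 364 lower and 433 higher genes among all tested, 1 lower and 2 higher guidance genes (Sema3a not called), and 5 higher genes of the wider pathway were called, with a correlation of 0.52 between the channels of a spot. The slide as a random block could not be fitted. In all, 3 arrays without a dye swap, probes of a gene that disagree, and signals near background for 7 of the 59 genes limit what can be read from single guidance genes.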
